A study of Mus musculus with 38 samples.

Results

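The 9 genes described here encode G protein-coupled receptors that guide B cells and antibody-secreting cells through tissues: the chemokine receptors Ccr6, Ccr7, Ccr9, Ccr10, Cxcr3, Cxcr4 and Cxcr5, the oxysterol receptor Gpr183 (also called EBI2) and the gut-homing receptor Gpr15. They were chosen by symbol with earlier results of these data known, and the rule uses no measured value (CCR6, CCR7, CCR9, CCR10, CXCR3, CXCR4, CXCR5, GPR183 and GPR15). All 9 were found among the 11441 uniquely named genes of the GC-normalized files, the 20650 of the inhibitor files and the 20605 of the plasma cell files. RNA was sequenced in 14 mouse C57BL/6 libraries, 2 in each of 7 groups. The series holds 38 samples here, of which 24 chromatin samples were not analysed here.

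Of the 7 groups, 3 came from Blimp1(GFP/+) Cd23(Cre/+) B cells cultured for 4 days with LPS, a bacterial product that drives B cells towards antibody secretion. Sorting by CD138 and GFP gave CD138–GFP– cells (activated B cells), CD138–GFP+ cells (pre-plasmablasts) and CD138+GFP+ cells (plasmablasts). The GFP allele reports the gene of Blimp1 (Prdm1), the transcription factor required for plasma cells, so the control cells also carried only 1 unmodified Blimp1 allele, and Cre as well. The fourth group was Blimp1-deficient pre-plasmablasts, Blimp1(GFP/fl) Cd23(Cre/+), from the same 4-day culture but sorted as CD138–GFP+CD22hi. Genotype and the CD22 gate changed together there and cannot be told apart. Cd23-Cre acts in mature B cells. The fifth and sixth groups were Blimp1(GFP/+) pre-plasmablasts without the Cre allele (CD138–GFP+), cultured for 4 days with LPS and either the solvent DMSO or GSK343, an inhibitor of the histone H3K27 methyltransferase EZH2. The seventh group was Blimp1(GFP/+) plasma cells sorted ex vivo as CD28+CD138+GFP+Lin–, and the labels name no organ for them. No label ties the 2 libraries within a group to different mice or cultures, so p-values measure the spread between these libraries.

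Homing receptors couple mainly to inhibitory G proteins and turn a gradient of ligand into directed movement and integrin activation. Cxcr5 (ligand Cxcl13) draws B cells into follicles, Ccr7 (Ccl19 and Ccl21) draws them to the T cell zone, and Gpr183 positions them at follicle borders by an oxysterol gradient. Ccr6 recognizes Ccl20 at mucosal sites. Cxcr4 (Cxcl12) holds antibody-secreting cells in the bone marrow, Cxcr3 (Cxcl9 to Cxcl11) serves recruitment to inflamed tissue, and Ccr9 (Ccl25), Ccr10 (Ccl27 and Ccl28) and Gpr15 are receptors for gut or other mucosal and skin surfaces.

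Sequences 250 bases upstream of the start site were available for 6 of the 9 genes from RefSeq (GRCm38.p6). Shown are those of Cxcr4, which led the receptor RNA of most groups, of Gpr15, which differed most with Blimp1 deficiency, and of Ccr9, which differed most between the experiments. Capitals mark GAAAG or TATAAA on either strand. Overlapping matches are counted. The windows lie on chr1:128592300-128592549 (minus strand), chr16:58718873-58719122 (minus strand) and chr9:123766961-123767210 (plus strand).
Cxcr4: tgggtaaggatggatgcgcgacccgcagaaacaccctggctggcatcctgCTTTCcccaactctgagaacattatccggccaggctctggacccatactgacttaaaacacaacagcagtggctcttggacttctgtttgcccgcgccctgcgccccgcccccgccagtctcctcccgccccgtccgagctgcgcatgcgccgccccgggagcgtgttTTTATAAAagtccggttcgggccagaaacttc
Gpr15: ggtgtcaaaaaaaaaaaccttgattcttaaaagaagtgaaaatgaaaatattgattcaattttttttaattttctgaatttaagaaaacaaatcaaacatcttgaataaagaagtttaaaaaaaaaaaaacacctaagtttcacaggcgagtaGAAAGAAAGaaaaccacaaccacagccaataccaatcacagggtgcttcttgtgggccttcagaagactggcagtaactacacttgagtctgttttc
Ccr9: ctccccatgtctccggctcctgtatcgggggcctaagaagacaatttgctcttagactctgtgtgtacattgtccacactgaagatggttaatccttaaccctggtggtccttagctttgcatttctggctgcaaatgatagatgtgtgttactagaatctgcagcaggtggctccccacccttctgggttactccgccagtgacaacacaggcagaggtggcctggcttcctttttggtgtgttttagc
The Cxcr4 window held 61.2% G and C and 19 CpG dinucleotides, against medians of 52% and 6 over 27025 promoters. It carried TATAAA on both strands at overlapping positions, which 12.97% of all promoters hold on at least 1 strand. The Gpr15 window held 31.6% G and C and 1 CpG, and carried 2 overlapping GAAAG, which occurs in 51.4% of all promoters. The Ccr9 window held 50.4% G and C and 3 CpG, and neither motif. The longer AGNGAAAG, a Blimp1-type sequence that contains GAAAG, and the PU.1-IRF composite element were in none of the windows of the 6 genes (Ccr6 has 2), against 7.23% and 2.38% of all promoters.

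Values are RPKM, reads scaled to transcript length and to the library's mapped reads, and levels of different genes are compared on this per-length scale. The 4 LPS groups with the Cre allele were deposited as GC-normalized RPKM, the inhibitor and plasma cell libraries as RPKM without that step, so levels across these 3 kinds of file are set side by side and were not tested. The GC-normalized libraries had 9744 to 10077 genes at 1 RPKM or more, the inhibitor libraries 9188 to 9519 and the plasma cell libraries 9869 to 9885. Read depth is unknown. The summed RPKM of 6 B cell markers was 3354 to 3542 in activated B cells and 1485 to 1600 in plasmablasts, and that of 6 plasma cell markers was 85.7 to 245 and 6904 to 12003. Plasma cells held 23579 to 27457 RPKM of the latter. All 6 plasma cell markers reached 1 RPKM in at least 1 library of each pre-plasmablast, plasmablast and plasma cell group except the Blimp1-deficient group. There 4 did. Prdm1 RNA, the targeted gene, was at 7.45 and 10.7 RPKM in activated B cells, 429 and 327 in pre-plasmablasts, 363 and 289 in plasmablasts, 199 and 171 in the Blimp1-deficient group, 108 and 106 with DMSO, 107 and 83.4 with GSK343, and 222 and 225 in plasma cells. A gene total does not show which exons were transcribed, and it does not test the deletion. Fewer cells of a type and less RNA per cell cannot be told apart in such bulk samples.

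**Figure D1:**
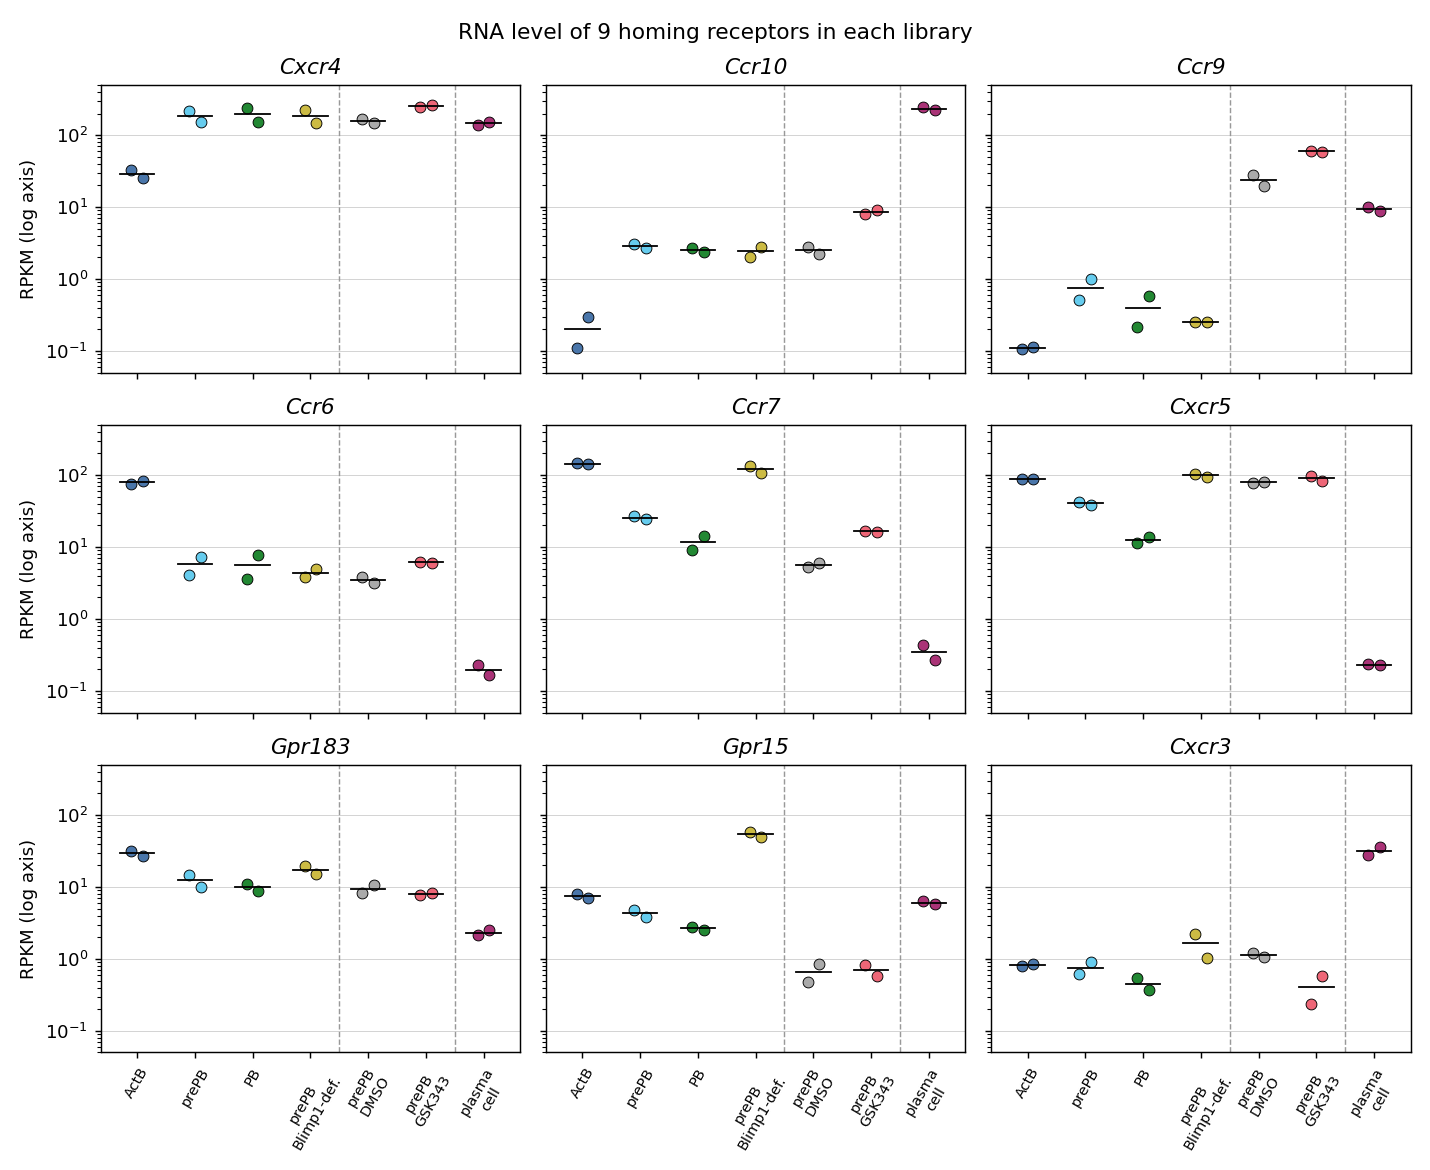
RPKM of the 9 receptors on a log axis in the 7 groups. Points are libraries, bars are means of 2, and dashed lines separate the 3 kinds of file, across which levels were not tested. Cxcr4 lies between 139 and 265 RPKM in every group but activated B cells, and Ccr6, Ccr7 and Cxcr5 lie below 1 RPKM in plasma cells.

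Activated B cells and pre-plasmablasts differed in most of the receptors. A total of 8 of the 9 passed the filter on low values (1 RPKM in 2 of the 8 libraries), and 2 rose and 5 fell in pre-plasmablasts, where 48.2% of all genes tested were called (20.2% higher, 28.0% lower). The median log2 difference was -0.90 for the 8 and -0.12 for all 10473 genes. Cxcr4 and Ccr10 were the receptors that rose. Ccr6, Ccr7, Cxcr5, Gpr183 and Gpr15 fell. Most markers of other cell types that were tested fell beside them. The 3 of 8 myeloid markers in these files (Itgam, Tyrobp and Emr1) were all called lower, with a summed level of 23.8 to 29.9 RPKM in activated B cells and 3.89 to 4.39 in pre-plasmablasts. The erythroid markers Hbb-b1 and Car2 were both called lower (12.9 to 18.4 RPKM, then 2.50 to 3.27). Flt3 among the dendritic markers (list sums 51.4 to 59.3, then 21.6 to 25.6) and Lck among the T cell markers (10.8 to 12.7, then 6.01 to 9.21) were also called lower. The other dendritic marker tested, Batf3 (-0.21 on the log2 scale), and the other T cell marker tested, Cd247 (0.27), were not called. Their part in the receptor values was not tested.

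Cxcr4, the receptor for Cxcl12, was at 32.7 and 25.0 RPKM in activated B cells, 215 and 153 in pre-plasmablasts and 242 and 153 in plasmablasts. Its level in both GFP+ groups lay above both activated B cell libraries, and the first library was the higher in each of the 4 GC-normalized groups. It rose by a log2 fold change of 2.62 ± 0.31 (SE, adjusted p = 0.000667) in pre-plasmablasts on the log2(RPKM + 1) scale. Plasmablasts and pre-plasmablasts overlapped, with a difference of 0.09 and a 95% interval of -0.65 to 0.83. That interval takes no account of the 2 runs of library numbers. With the runs as a block in limma, Cxcr4 was not called either (adjusted p = 0.441). Ccr10, which recognizes Ccl27 and Ccl28, was at 0.110 and 0.294 RPKM in activated B cells, 3.12 and 2.73 in pre-plasmablasts and 2.72 and 2.41 in plasmablasts. The gain was 1.71 ± 0.15 (adjusted p = 0.000199), and it too was not called between pre-plasmablasts and plasmablasts (interval -0.50 to 0.23). Ccr10 overlaps Cntnap1 in the reference, which was at 1.02 to 2.28 RPKM in these 6 libraries. The part of Cntnap1 in the Ccr10 values was not tested.

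Ccr6, the receptor for Ccl20, fell most. It was at 76.3 and 82.3 RPKM in activated B cells, 4.15 and 7.35 in pre-plasmablasts and 3.64 and 7.78 in plasmablasts, so the activated cells stood apart and the other groups overlapped. The log2 fold change in pre-plasmablasts was -3.61 ± 0.34 (adjusted p = 0.000257). Ccr7 was at 145 and 142 RPKM in activated B cells, 26.8 and 24.4 in pre-plasmablasts and 9.24 and 14.2 in plasmablasts. It fell by 2.44 ± 0.20 on the log2 scale at the first step (adjusted p = 0.000131). Its 3 groups did not overlap. The share of all genes without overlap was not counted, so nothing is read from overlap for any receptor.

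Cxcr5 was at 88.7 and 89.0 RPKM in activated B cells, 42.5 and 38.2 in pre-plasmablasts and 11.2 and 14.01 in plasmablasts. It fell by 1.12 ± 0.12 (adjusted p = 0.000516) at the first step. Bcl9l, a coactivator in Wnt signalling whose gene overlaps Cxcr5, went from 62.1 and 63.9 to 14.8 and 18.0 and to 8.20 and 10.2 RPKM in the same libraries. Its part in the Cxcr5 values was not tested. Gpr183 was at 31.6 and 27.01 RPKM, then 14.7 and 9.997, then 11.2 and 8.76. It lies within Ubac2, a gene of the endoplasmic reticulum, which moved the other way, from 31.6 and 29.4 to 61.8 and 58.9 and 90.3 and 82.3 RPKM. The log2 change of Gpr183 at the first step was -1.20 ± 0.22 (adjusted p = 0.00438). Gpr15 was at 7.99 and 7.11 RPKM in activated B cells, 4.84 and 3.88 in pre-plasmablasts and 2.76 and 2.54 in plasmablasts, and it fell by 0.68 ± 0.13 (adjusted p = 0.00623).

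Ccr9 and Cxcr3 were low along this series. Ccr9 was at 0.105 and 0.115, then 0.516 and 0.998, then 0.214 and 0.586 RPKM, and it did not pass the filter. Cxcr3 was at 0.793 and 0.852, then 0.611 and 0.896, then 0.535 and 0.364 RPKM. Its difference between pre-plasmablasts and activated B cells was -0.06 (interval -0.59 to 0.47, adjusted p = 0.846), and it passed the filter only through the Blimp1-deficient libraries.

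From pre-plasmablasts to plasmablasts the receptors changed less. None of the 8 was called higher and 2 fell, where 2.34% of all genes were called (0.716% higher, 1.62% lower). These were Cxcr5, by 1.61 ± 0.12 on the log2 scale (adjusted p = 0.00370), and Ccr7, by 1.09 ± 0.20 (adjusted p = 0.0473). The Ccr7 call was lost in 11 of 15 alternative analyses, with adjusted p up to 0.249, including each of those that left out 1 library except plasmablast library 2, and Cxcr5 was lost only where the 2 groups were fitted alone (adjusted p = 0.0712). With the run of library numbers as a block, Ccr7 was called at an adjusted p of 0.00552 and Gpr15 was also called lower (0.00365, log2 fold change -0.55), against 0.107 without it. At an unadjusted p under 0.05, 3 of the 8 passed, all of them lower (Cxcr5, Ccr7 and Gpr15), against 16.3% of all genes (5.80% higher, 10.5% lower). Over both steps, 2 rose and 5 fell between plasmablasts and activated B cells (background 55.1%, with 21.3% higher and 33.9% lower), and Cxcr5 fell by 2.73 and Ccr7 by 3.54.

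Blimp1 deficiency was compared with control pre-plasmablasts. Gpr15, Ccr7 and Cxcr5 were higher without Blimp1 and none of the 8 receptors tested was called lower, where 40.4% of all genes were called (24.4% higher, 16.1% lower). Gpr15 was at 58.1 and 50.3 RPKM in the Blimp1-deficient cells against 4.84 and 3.88 in the controls. Both mutant libraries lay far above every other library of the 14, of which the highest held 7.99. The difference was 3.37 ± 0.13 (adjusted p = 4.03e-05), and it kept its call in each of the 15 alternatives, at 3.24 to 3.61. Ccr7 was at 134 and 108 RPKM, higher by 2.19 ± 0.20 (adjusted p = 0.000320). Cxcr5 was at 105 and 94.7 RPKM, higher by 1.29 ± 0.12 (adjusted p = 0.000430). Bcl9l, which overlaps it, was at 27.3 and 27.2 RPKM in those libraries.

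The other receptors were not called there by limma. At an unadjusted p under 0.05, none was lower, against 19.2% of all genes. Cxcr4 was at 223 and 147 RPKM without Blimp1 and 215 and 153 in the controls, with a 95% interval of -0.74 to 0.74 for the log2 difference. That interval is from the fit without the run block, and with the block the adjusted p of Cxcr4 was 0.986. Ccr10 was at 2.03 and 2.82 RPKM (interval -0.57 to 0.16) and Ccr6 at 3.89 and 4.90 (interval -1.10 to 0.53). Cntnap1, which overlaps Ccr10, was at 4.59 and 4.73 RPKM without Blimp1 and 1.98 and 2.28 in the controls. Its part in the Ccr10 values was not tested. Ccr9, not tested, was at 0.249 and 0.253 RPKM. Gpr183 was at 19.6 and 15.3 RPKM, a difference of 0.48 ± 0.22 (adjusted p = 0.129), and with the run block it was called higher (0.00134). Cxcr3 was at 2.25 and 1.04 RPKM, and since it passed the filter only through these 2 libraries its test against the controls is not read, with or without the block.

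The same cells were set against activated B cells, with which the comparisons above share libraries. Gpr15 was higher by 2.69 ± 0.13 (adjusted p = 0.000171), Cxcr4 by 2.62 ± 0.31 (0.00259) and Ccr10 by 1.505 ± 0.15 (0.00154), and Ccr6 was lower by 3.90 on the log2 scale (0.00103). These were 3 higher and 1 lower of 8, against 18.0% of all genes (10.4% higher, 7.60% lower). For Ccr7 and Cxcr5 the differences were -0.25 (interval -0.72 to 0.22) and 0.16 (interval -0.13 to 0.46). Gpr183 was lower by 0.72 with an adjusted p of 0.0681. It passed the threshold with the block (0.000310) or without either pre-plasmablast control library.

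**Figure D2:**
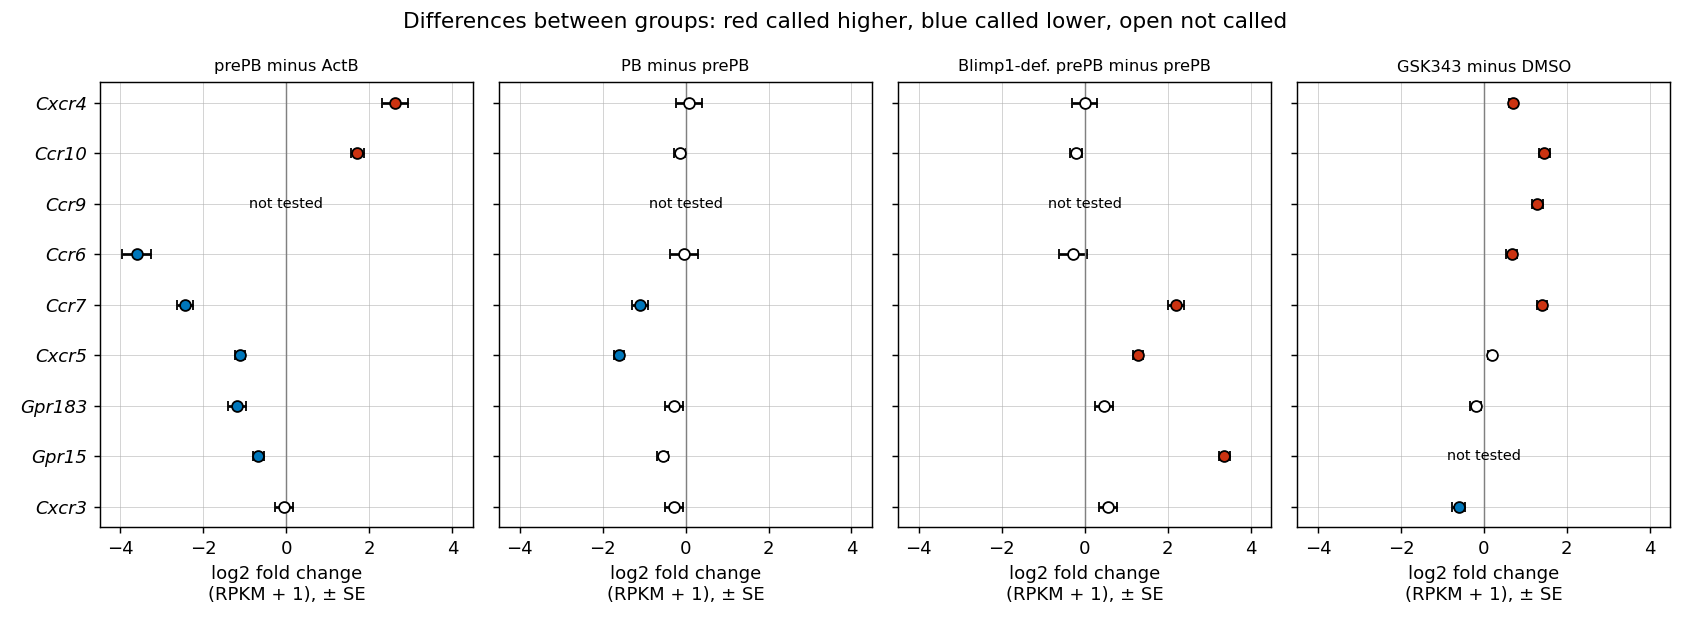
Log2 fold change on the (RPKM + 1) scale with its SE for each receptor in 4 comparisons. Red and blue points passed an adjusted p of 0.05, open points did not, and 1 receptor in each panel was not tested. Cxcr3 passed the filter only through the group where it is high in the last 2 panels. Gpr15 stands at 3.37 in the Blimp1-deficient panel and Ccr6 at -3.61 in the first panel.

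GSK343 was compared with DMSO in its own libraries. Of the 8 receptors that passed the filter, 5 rose and 1, Cxcr3, was called lower after it had passed only through the DMSO libraries, where 18.6% of all 9479 genes were called (12.7% higher, 5.86% lower), and the medians were 0.68 for the 8 and 0.02 for all genes. Ccr9 was at 28.1 and 19.9 RPKM with DMSO and 60.9 and 57.8 with GSK343, a rise of 1.29 ± 0.13 (adjusted p = 8.96e-05). Ccr10 was at 2.80 and 2.20, then 8.12 and 9.09, a rise of 1.46 ± 0.14 (4.69e-05). Cntnap1, which overlaps Ccr10, was at 0.128 and 0.471 with DMSO and 1.39 and 0.875 with GSK343. Its part in the Ccr10 values was not tested. Ccr7 was at 5.32 and 5.95, then 16.6 and 16.4, a rise of 1.404 ± 0.11 (1.56e-05). The groups did not overlap in Ccr9, Ccr10 or Ccr7, nor in Cxcr5, which was not called. The share of all genes without overlap was not counted, so nothing is read from this.

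Cxcr4 was at 166 and 147 RPKM with DMSO and 244 and 265 with GSK343, a rise of 0.70 ± 0.09 (adjusted p = 0.000313). Ccr6 was at 3.80 and 3.19, then 6.23 and 6.03, a rise of 0.67 ± 0.13 (0.00453). The 5 rises kept their calls in each of the 9 alternatives. Cxcr3 was at 1.19 and 1.07 RPKM, then 0.237 and 0.574, a difference of -0.61 ± 0.15 (0.0185). Only the DMSO libraries, where it is the higher, brought it past the filter, so nothing is read from its call. That call was lost with no filter on low values (0.0519) and without GSK343 library 1 (0.160), and without either DMSO library Cxcr3 did not pass the filter. Cxcr5 was at 78.4 and 80.0, then 97.1 and 83.7 (interval -0.01 to 0.38), and Gpr183 at 8.17 and 10.6, then 7.64 and 8.38 (interval -0.49 to 0.10). Gpr15, not tested, was at 0.476 and 0.842, then 0.827 and 0.572 RPKM.

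The receptors of plasma cells ex vivo were partly those of the other GFP+ groups, and levels across kinds of file were not tested. Ccr10 was at 243 and 222 RPKM, which ranked it at percentiles 98.0 and 97.8 of the 11362 genes in all 3 kinds of file, and Cxcr4 was at 139 and 154 RPKM, at percentiles 96.0 and 96.5. Cxcr3 was at 27.4 and 36.3 RPKM, against 2.25 in the highest library of the other 6 groups. Ccr9 was at 10.2 and 8.93 RPKM and Gpr15 at 6.38 and 5.77. The follicle and T cell zone receptors and Ccr6 were below 1 RPKM, with Cxcr5 at 0.239 and 0.226, Ccr7 at 0.431 and 0.269 and Ccr6 at 0.226 and 0.168 RPKM. Gpr183 was at 2.16 and 2.49 RPKM. Cntnap1, which overlaps Ccr10, was at 16.9 and 16.4 RPKM, and the Ccr10 to Cntnap1 ratio was 14.4 and 13.5. The part of Cntnap1 in the Ccr10 values was not tested. Myeloid markers summed to 27.4 to 41.8 RPKM in these libraries, with 6 of 8 at 1 RPKM or more in at least 1 library. T cell markers summed to 18.6 to 23.3, with 3 of 8 by the same count. Erythroid or platelet markers summed to 30.4 to 55.6 RPKM, with 2 of the 5 found at 1 RPKM or more in at least 1 library. NK or dendritic markers summed to 2.33 to 2.63. The part of these markers in the receptor levels was not tested.

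**Figure D3:**
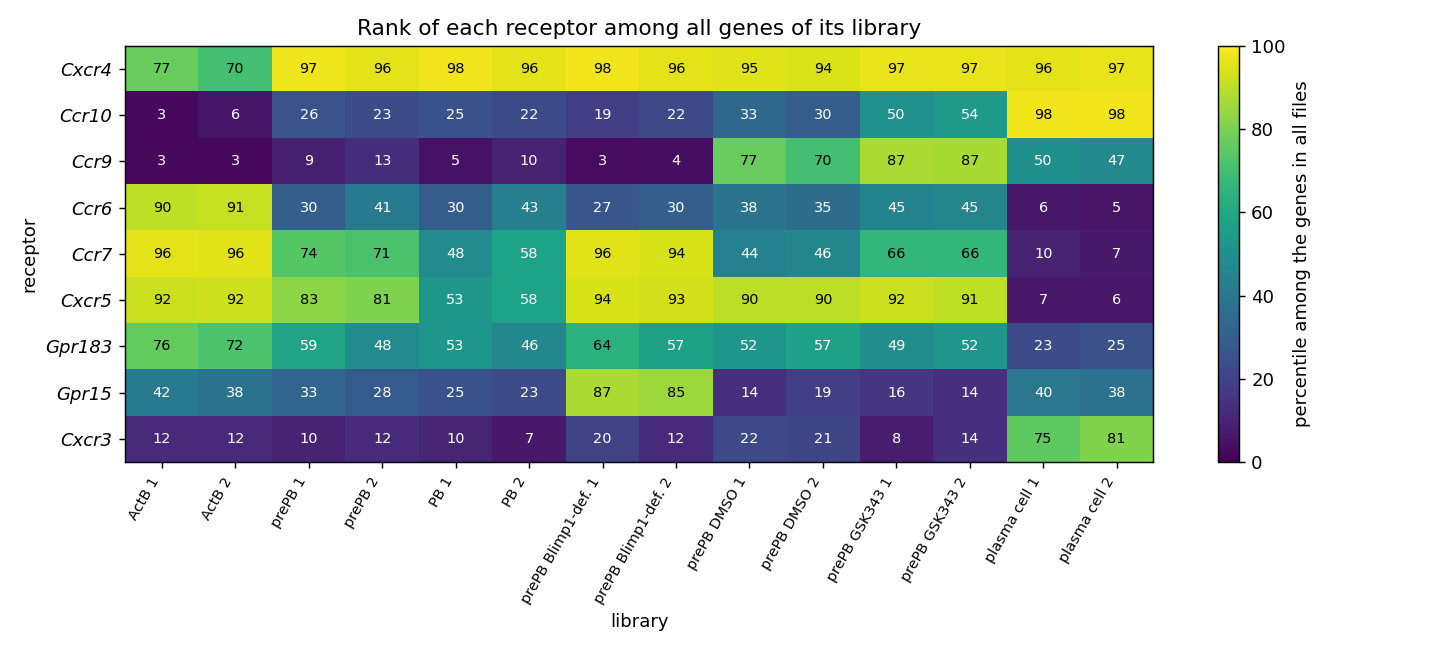
Percentile of each receptor among the genes shared by all files, by library (columns) and receptor (rows). Ccr10 goes from percentiles of 3 and 6 in activated B cells to 98 in plasma cells, and Ccr9 is at 13.1 or below in all GC-normalized libraries and at 70 or above in the inhibitor libraries.

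As shares of the summed RPKM of the 9 genes, the make-up differed between groups. In activated B cells Ccr7 held 37.9%, Cxcr5 23.5%, Ccr6 21.0% and Cxcr4 7.61%. Cxcr4 held 66.1% in pre-plasmablasts and 80.2% in plasmablasts. In Blimp1-deficient pre-plasmablasts Cxcr4 held 37.7%, Ccr7 25.0%, Cxcr5 20.7% and Gpr15 11.2%. With DMSO Cxcr4 held 55.4%, Cxcr5 28.1% and Ccr9 8.45%, and with GSK343 57.2%, 20.3% and 13.4%. In plasma cells Ccr10 held 54.2%, Cxcr4 34.0% and Cxcr3 7.42%. The Cxcr4 to Cxcr5 ratio within a library needs no scaling between libraries. It was 0.368 and 0.281 in activated B cells, 5.05 and 4.00 in pre-plasmablasts and 21.6 and 10.9 in plasmablasts. Without Blimp1 the ratio was 2.13 and 1.55, with DMSO 2.12 and 1.84, and with GSK343 2.51 and 3.17. In plasma cells it was 581 and 680. The ratios were not tested across kinds of file.

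**Figure D4:**
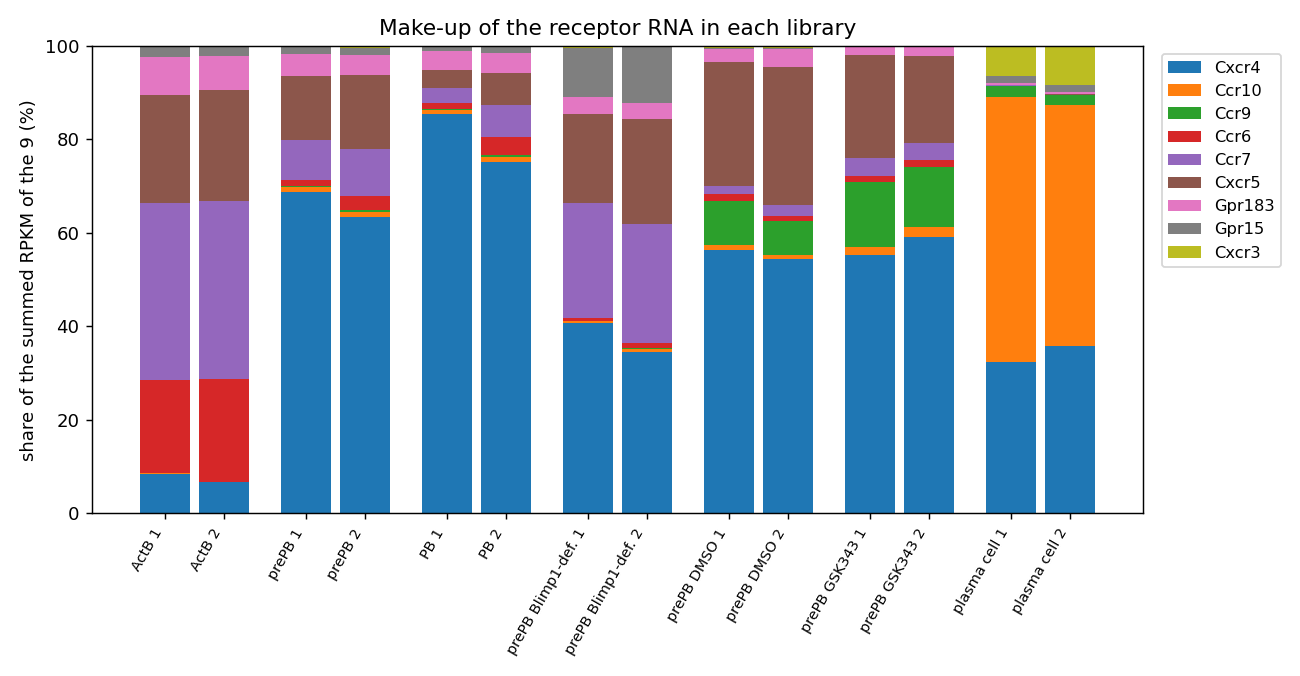
Share of each receptor in the summed RPKM of the 9 genes in each library, in percent. Ccr7, Cxcr5 and Ccr6 fill most of the activated B cell bars. Cxcr4 fills most of the control, DMSO and GSK343 pre-plasmablast bars and of the plasmablast bars. On average, Cxcr4 fills 37.7% of the Blimp1-deficient bars and Ccr10 54.2% of the plasma cell bars.

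The 2 sets of control pre-plasmablasts, which differ in the Cre allele, the solvent, the experiment and the kind of file, did not carry the same levels. Ccr9 was at 0.516 and 0.998 RPKM in one and 28.1 and 19.9 in the other, and 0.175% of 11410 shared genes differed as much on the log2(RPKM + 1) scale. Ccr7 was at 26.8 and 24.4 against 5.32 and 5.95 (5.30% of genes differed as much), and Gpr15 at 4.84 and 3.88 against 0.476 and 0.842 (8.83%). For Cxcr5, 27.6% of genes differed as much, and for Ccr6, Gpr183, Cxcr3, Cxcr4 and Ccr10 50.3% to 82.9% did. Bcl9l was at 14.8 and 18.0 RPKM in one and 0.763 and 0.883 in the other. The 4 differences in design cannot be told apart.

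Other genes of the pathway were read from lists. Other chemokine receptors in pre-plasmablasts against activated B cells numbered 3 higher and 2 lower of 5 tested, where 20.2% of all genes were higher and 28.0% lower. The scavenging receptor Ccbp2 (now Ackr2) fell by 3.23 on the log2 scale and Ccrl2 rose by 2.78. Without Blimp1, 3 of 5 were higher and 2 lower (all genes 24.4% and 16.1%), with Ccbp2 higher by 4.45 and Ccrl2 lower, at -2.05. Ccbp2 was at 0.506 and 1.014 RPKM in control pre-plasmablasts and 32.9 and 41.8 without Blimp1. Among other lipid receptors, 4 of 17 rose and 10 fell in pre-plasmablasts, and 11 of 17 were higher and 1 lower without Blimp1, against the same shares of all genes. S1pr3, a sphingosine-1-phosphate receptor, was at 7.97 and 8.84 RPKM in controls and 30.7 and 38.2 without Blimp1. Gpr55, a lysophospholipid receptor, rose by 2.04 in pre-plasmablasts and by 0.94 with GSK343.

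Homing partners, the adhesion molecules and regulators that work beside the receptors, numbered 5 higher and 4 lower of 10 in pre-plasmablasts, where 48.2% of all genes were called. Klf2, a transcription factor that maintains lymphocyte homing genes, fell by 4.35 on the log2 scale. Integrin beta 7 (Itgb7), part of the gut-homing integrins, fell by 2.31. Without Blimp1, 5 of 10 were higher and 4 lower (all genes 40.4% called), with Klf2 at 4.05, Itgb7 at 3.09 and Itgb1 at 2.26. With GSK343, 6 of 10 rose and the other 4 were not called (all genes 12.7% higher), with Itgb7 at 2.11 and Klf2 at 1.69. Itgb7 was at 218 and 206 RPKM in plasma cells.

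The signalling list held 37 genes tested in the GC-normalized files, of which 7 rose and 17 fell in pre-plasmablasts (all genes 20.2% and 28.0%), and 14 were higher and 5 lower without Blimp1 (24.4% and 16.1%). Pik3cg, the catalytic subunit of PI3K gamma, rose by 4.99 in pre-plasmablasts and stood at a log2 difference of -4.09 without Blimp1. Rasgrp2, which activates Rap1, fell by 2.74 and stood higher by 2.26. With GSK343, 7 of 35 rose and 4 fell (all genes 12.7% and 5.86%). Of the ligand genes, Cxcl10, a ligand of Cxcr3, rose by 2.56 in pre-plasmablasts. It was the only gene called of 3 tested.

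Beside the Blimp1 comparison, 3 of 3 myeloid markers tested (Itgam, Emr1, Tyrobp) were higher, with a summed level of 31.7 to 35.8 RPKM without Blimp1, 3.89 to 4.39 in control pre-plasmablasts and 23.8 to 29.9 in activated B cells. The B cell marker Cd22, on which the mutant cells were gated, was higher by 3.27. Of the 6 B cell markers, 5 were called higher and 0 lower, with a median log2 difference of 0.996. All 6 plasma cell markers were called lower, with a median of -1.39. Of all genes, 24.4% were called higher and 16.1% lower. The erythroid markers summed to 13.3 to 14.5 RPKM without Blimp1 and 2.50 to 3.27 in the controls. In the inhibitor experiment the T cell markers summed to 10.5 to 12.4 RPKM with GSK343 and 4.21 to 4.26 with DMSO, with Cd3e at 0 in all 4 libraries and Lck, also expressed by some B cells, at a mean of 8.91 against 2.33. The erythroid or platelet markers summed to 21.6 to 32.6 RPKM with GSK343 and 11.3 to 14.7 with DMSO, with Car2 called higher by 0.96 and the platelet genes Pf4 and Ppbp at 0 in both DMSO libraries. The myeloid markers summed to 5.55 to 5.59 and 3.49 to 4.22 RPKM, with Cd14 called higher by 1.05 and Csf1r and S100a8 at 0 in both DMSO libraries. Tyrobp, the other myeloid marker tested, was not called (-0.21), nor was the T cell marker Cd247 (-0.14). The NK or dendritic markers summed to 14.9 to 15.1 RPKM with GSK343 and 18.5 to 20.2 with DMSO, with Flt3 called lower, at -0.39. Of the plasma cell markers, Sdc1 was called higher by 1.25 and Tnfrsf17 by 0.89, and Irf4 was called lower, at -0.51. Their part in the receptor values was not tested.

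The genes whose levels followed each receptor most closely over the 8 GC-normalized libraries, by Pearson's r of log2(RPKM + 1), are given as a description, since the 8 libraries share groups and runs. They were Fam101b and Thra for Ccr6 (r = 0.998 and 0.992), Zmiz1 and Zmym4 for Ccr7 (0.997 and 0.997), and H2-Eb1 and Sgms1 for Cxcr5 (0.998 and 0.996). For Gpr183 they were Arhgef1 and Tbc1d1 (0.997 and 0.995), and for Gpr15 Unc119 and Bfsp1 (0.998 and 0.997). For Cxcr4 they were Rbm47 and Zfand6 (0.995 and 0.991), and for Ccr10 Cd24a and Slc48a1 (0.995 and 0.995). For Cxcr3 no such gene is read, since it passed the filter only through the Blimp1-deficient libraries. Among the receptors themselves, Ccr6 and Cxcr4 ran in opposite directions (r = -0.99) and Ccr7 and Cxcr5 together (r = 0.96).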

How the data were processed

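RNA was sequenced from 14 mouse libraries, 2 in each of 7 groups formed from the labels. The deposited values are RPKM per gene, per the file headers and values, and 8 libraries carry a name for GC normalization. The submitters' processing notes name TopHat 1.4.1, HTSeq 0.5.3, DESeq 1.8.3 and SICER and the build mm9, with no role or order. The sources used here name no annotation or strand setting for the counting. Libraries were made strand-specific, per the labels' protocols. The plasma cell files hold 5 read-counter summary names among the gene names, so these were dropped and the names moved back (Spearman with DMSO library 1 then 0.908, against 0.397 as deposited). Names that had lost letters were restored in 325 cases, and repeated names were left out. Read depth is unknown, and the low values of the GC-normalized files share no common step.

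Genes with at least 1 RPKM in at least 2 libraries were tested on log2(RPKM + 1) with limma 3.58.1 (R 4.3.3, trended empirical Bayes, two-sided, Benjamini-Hochberg over all genes tested, adjusted p below 0.05). The fold change on that scale understates low genes. The 8 GC-normalized libraries shared 1 fit and the inhibitor libraries had their own. The titles carry 2 runs of library numbers, and same-run libraries deviated together (correlations 0.666 to 0.781 over 6 pairs of groups), so runs were fitted as a block in an alternative. Other alternatives were the pseudocount, filter, scaling, eBayes trend, groups in the fit and each library left out. A pseudocount of 0.5 was added after seeing the data. All receptors were named, up to 4 called genes of each other list with the largest fold change per comparison (the most abundant where none was called), overlapping genes, and the 2 genes most alike. Values of some listed genes are not reported here. Members and lists were chosen with earlier results of these data known. Sequences are RefSeq GRCm38.p6, and their coordinates are not those of mm9.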

Additional observations from a re-analysis of the deposited data

How the results depend on the processing

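No called result changed direction in any alternative. Of the receptor calls, those for plasmablasts against pre-plasmablasts moved most: 2 were called lower in the main analysis, 1 with a pseudocount of 0.1, median-of-ratios scaling or no eBayes trend, 0 when the 2 groups were fitted alone, and 1 to 2 with 1 library left out. Genes called there numbered 245, against 2128 with the replicate block of library-number runs, 1 in the 2-group fit and 23 to 149 with a library left out. For Blimp1 deficiency against pre-plasmablasts, the block gave 5 receptors higher in place of 3 (Cxcr3 among them, which passed the filter only through the Blimp1-deficient libraries) and 6829 genes in place of 4234. Against activated B cells it gave 2 receptors lower in place of 1 and 4477 genes in place of 1885, and the 2-group fit gave 1200 genes. Leaving out a library gave 1 to 2 receptors and 719 (without activated B cell library 1) to 1611 genes. For GSK343, receptors called lower numbered 0 without a filter and 0 to 1 with a library left out, and the 1763 genes became 747 (without GSK343 library 2) to 1955. The block also called Gpr15 lower in plasmablasts against pre-plasmablasts, and it changed no other receptor call.

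Median-of-ratios scaling moved the median log2 difference of all genes from -0.12 to -0.02 (pre-plasmablasts against activated B cells), from -0.18 to -0.01 (plasmablasts against activated B cells) and from 0.12 to 0.00 (Blimp1-deficient against control). It raised the share of higher calls from 41.9% to 51.5% in pre-plasmablasts against activated B cells (2117 higher and 2931 lower became 2432 and 2293), from 38.6% to 51.3% in plasmablasts against activated B cells, from 30.6% to 42.4% in plasmablasts against pre-plasmablasts, and lowered it from 60.3% to 47.5% with Blimp1 deficiency and from 68.5% to 55.1% with GSK343. The 2 libraries per group limit the precision, and without read depth a level near 0 has no counting interval.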
